A study of Saccharomyces cerevisiae with 11 samples.

Results

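The genes described here are 9 genes of nitrogen catabolite repression in Saccharomyces cerevisiae, measured by total RNA sequencing in 11 libraries of cells treated with rapamycin. They were chosen by name, among the 6834 features that the count tables list. Of them, 4 encode permeases (GAP1 or YKR039W, MEP1 or YGR121C, MEP2 or YNL142W, DAL5 or YJR152W), 3 encode transcription factors of the GATA family (GLN3 or YER040W, GAT1 or YFL021W, DAL80 or YKR034W) and 2 encode enzymes (UGA1 or YGR019W, DUR1,2 or YBR208C). All cells were of a strain built for anchor-away of Abf1, named ABF1-aa-V5 clone A9, which the labels place in the BY4741 background. In this strain the chromosomal copy of Abf1, a general regulatory factor that binds promoters, carries an FRB tag, and rapamycin ties it to an FKBP-tagged ribosomal protein that carries it out of the nucleus. Every strain also held a pRS315 plasmid, and this plasmid set the condition. It encoded wild-type Abf1 (2 libraries), no Abf1 (3 libraries), EM shuffle (2), LS-15 (LS15 in the labels, 2) or NCS-506 (NCS506 in the labels, 2). EM shuffle and LS-15 each have the residues of a short stretch of the disordered region IDR2 in shuffled order, in EM shuffle the stretch named the essential motif, and NCS-506 carries random point mutations in IDR2. By the paper these constructs were built on a minimal Abf1 that lacks its other disordered region, IDR1, and carries an added nuclear localization signal. The wild-type plasmid held the whole ABF1 gene. Comparisons of a construct with wild-type Abf1 therefore also differ in IDR1, and the effect of its loss cannot be told apart there. The replicates of the study came from independent transformant clones of this one strain, grown to log phase in synthetic medium without leucine.

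All 11 libraries received 8 µg/mL rapamycin. Of them, 10 were treated for 75 min, and 1 of the 2 wild-type Abf1 libraries was treated for 60 min and carries an earlier batch label than the other 10. No untreated library was analysed here. The values below therefore compare treated cells with treated cells, and the change that rapamycin itself brings about was not measured.

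In nitrogen catabolite repression, yeast cells that have a good nitrogen source keep the genes for poor sources silent. The activators Gln3 and Gat1 are then held outside the nucleus, and the repressors Dal80 and Gzf3 compete with them for GATA sequences in promoters. The kinase complex TORC1 helps to keep Gln3 in the cytoplasm, and rapamycin inhibits TORC1 after it binds Fpr1, so that in sensitive yeast rapamycin is known to switch these genes on.

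The strain markers were read first. FPR1, which encodes the rapamycin-binding protein, had 1 to 9 counts in every library, whereas TOR1, a kinase of TORC1, had 355 to 807 counts. Whether this strain carries alleles that make it resistant to rapamycin is not given in the sources used here, so it is not known whether TORC1 was inhibited at either time. The mating-type genes went against the labelled background, which is MATa. The alpha-cell genes STE3, MF(ALPHA)1 and SAG1 stood at 93.9 to 636 CPM, and the a-cell genes STE2, MFA1 and BAR1 stood at 0 to 10.2 CPM, with STE6, the remaining a-cell gene of the list, at 16.8 to 35.2 CPM. LEU2, the marker of the plasmid, was at 208 to 1174 CPM. The auxotrophic markers MET17 and HIS3 were also read, at 104 to 249 CPM and at 36.0 to 79.9 CPM. CPM are counts per 1000000 counts of the library, with library totals scaled by the trimmed mean of M values (TMM).

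Nitrogen-regulated genes are known for GATA sequences upstream of their coding start, so the promoters of the members were searched for GATAAG on both strands. Within 400 bases of the coding start 8 of the 9 members held at least 1 match and 6 held 2 or more, while of 5563 promoters of protein-coding genes searched in the same way 18.7% held at least 1 and 2.59% held 2 or more. Within 250 bases the count was 5 of 9 members, beside 12.5% of all promoters. UGA1 had no match in 400 bases. The 21 matches in the members lay 171 to 393 bases before the coding start. The stretches from 400 to 151 bases before the coding start of 3 permease genes are shown because the results below turn on these genes: MEP2 is the member that differed from wild-type Abf1 by the test, and GAP1 and MEP1 differed most between the wild-type Abf1 libraries. They are RefSeq sequence of assembly R64, given 5′ to 3′ on the strand of the gene, with every GATAAG and its reverse complement CTTATC in capitals. They come from chrXIV:357053-357302 on the plus strand for MEP2, chrXI:514663-514912 on the plus strand for GAP1 and chrVII:733078-733327 on the minus strand for MEP1. By the annotation the GAP1 and MEP1 stretches lie between genes, and the far part of the MEP2 stretch lies in YNL143C, a gene on the other strand that is separated from MEP2 by 266 bases.
MEP2: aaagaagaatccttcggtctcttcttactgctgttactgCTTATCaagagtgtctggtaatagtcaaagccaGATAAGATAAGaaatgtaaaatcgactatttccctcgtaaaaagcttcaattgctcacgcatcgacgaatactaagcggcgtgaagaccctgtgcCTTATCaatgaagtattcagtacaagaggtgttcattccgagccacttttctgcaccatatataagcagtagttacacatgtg
GAP1: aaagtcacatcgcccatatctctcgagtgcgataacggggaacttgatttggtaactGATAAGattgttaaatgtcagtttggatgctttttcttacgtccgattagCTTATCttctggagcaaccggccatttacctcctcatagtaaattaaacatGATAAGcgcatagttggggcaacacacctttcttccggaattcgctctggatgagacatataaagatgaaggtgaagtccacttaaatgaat
MEP1: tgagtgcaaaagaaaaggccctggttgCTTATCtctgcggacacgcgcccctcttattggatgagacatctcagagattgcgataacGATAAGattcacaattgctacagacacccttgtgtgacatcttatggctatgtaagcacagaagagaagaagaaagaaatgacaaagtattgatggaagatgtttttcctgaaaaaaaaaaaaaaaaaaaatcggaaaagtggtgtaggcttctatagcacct

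MEP2 held 4 matches in this window, and 2 of them, 328 and 323 bases before the coding start, overlap. These 2 and the match at 361 bases lay farther out than the 266 bases to YNL143C. GAP1 held 3 matches and MEP1 held 2. GAT1 held 4 matches within 250 bases, at 241, 229, 224 and 219 bases, of which the last 3 overlap each other. DAL80 and DAL5 held 3 each, and GLN3 and DUR1,2 held 1 each. The next upstream gene is 66 bases from DAL80 and 313 bases from GLN3. All 3 matches of DAL80 and the match of GLN3, at 378 bases, lay farther out than that. The consensus of Abf1, searched on both strands, was found in none of the 9 members within 250 bases and in 1 of them, DAL80, within 400 bases, at 312 bases. This match also lay farther out than the near end of the next upstream gene. Of all promoters, 12% held the Abf1 consensus within 250 bases and 16.2% within 400 bases. A match describes the letters of the sequence and does not show that a factor binds there.

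The 9 genes differed widely in level. Compared per length, as mean CPM per kilobase of coding sequence over the 11 libraries, the order was UGA1, GAT1, GLN3, DUR1,2, GAP1, MEP1, MEP2, DAL5 and DAL80. UGA1, the transaminase that starts the breakdown of GABA, was at 106 CPM per kilobase, above 80.4% of the protein-coding features listed. The activators GAT1 and GLN3 were at 61.7 and 53.9 CPM per kilobase, and their ranges over the libraries overlapped, from 41.4 to 79.3 for GAT1 and from 36.7 to 71.5 for GLN3. DUR1,2, which degrades urea, and GAP1, the general amino acid permease, were at 31.6 and 30.4 CPM per kilobase, also with overlapping ranges. The ammonium permeases MEP1 and MEP2 were at 18.1 and 14.9 CPM per kilobase, and the allantoate permease DAL5 was at 6.76. The median protein-coding feature stood at 41.5 CPM per kilobase, so 6 of the 9 members lay below it. DAL5 lay above 8.90% of these features and DAL80 above 3.46%.

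**Figure D1:**
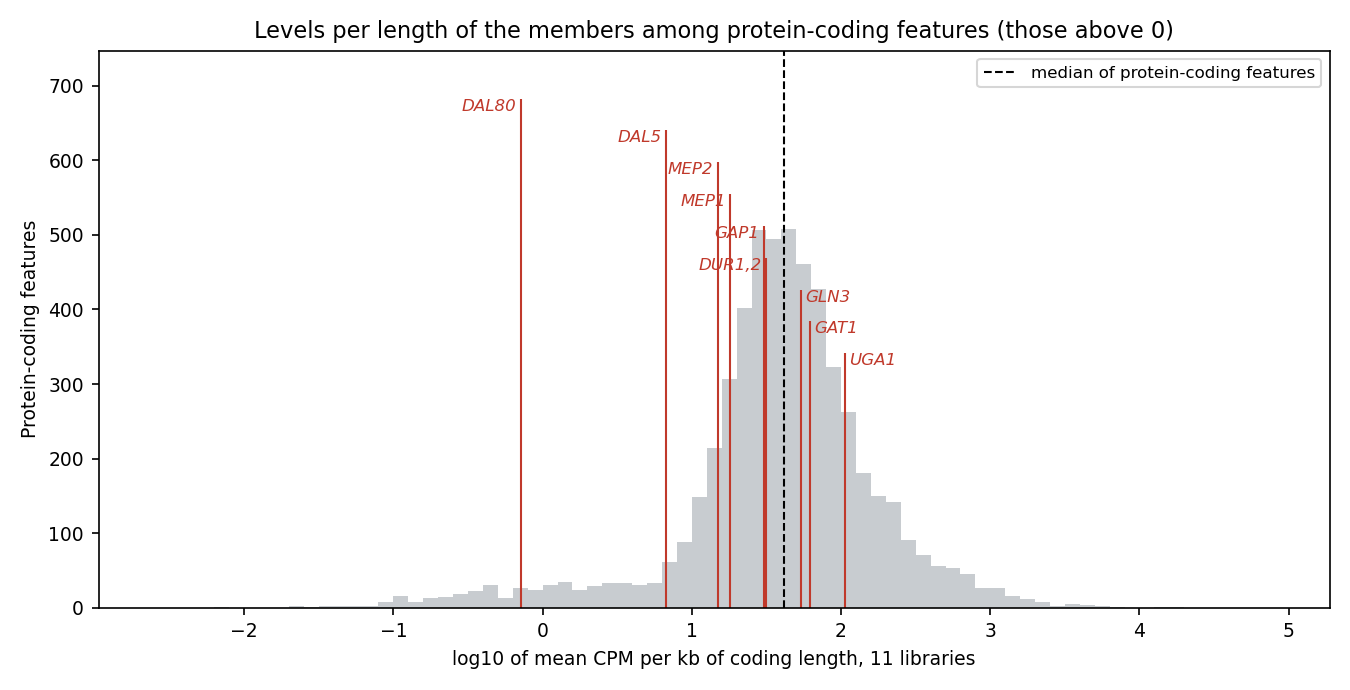
Histogram of the mean level of protein-coding features on a log10 axis of CPM per kilobase of coding length, over 11 libraries, with 9 red lines for the members and a dashed line for the median. UGA1, GAT1 and GLN3 lie to the right of the median of 41.5 CPM per kilobase, the other 6 members lie to its left, and DAL80 lies apart at 0.712.

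DAL80, the repressor that is itself a target of nitrogen catabolite repression, was almost unread. It had 9 counts in all 11 libraries together. Both wild-type Abf1 libraries had 1 count, the no Abf1 libraries had 0, 3 and 0, EM shuffle had 1 and 1, LS-15 had 0 and 1, and NCS-506 had 1 and 0. A library with 0 counts is still compatible with up to 3 counts, so no difference in DAL80 was detectable at this depth. DAL80 did not pass the filter on low counts, and the 8 other members did, among 5456 features tested.

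MEP2 was the steadiest permease within conditions and the one that differed most between them. Its level was 36.1 and 35.6 CPM in the wild-type Abf1 libraries of 60 and 75 min. It was 29.1, 22.5 and 21.6 CPM without Abf1, 15.1 and 13.1 CPM with EM shuffle, 20.2 and 18.3 CPM with LS-15, and 18.3 and 15.9 CPM with NCS-506. Both wild-type Abf1 libraries therefore lay above all 9 others, which also held for 10.5% of all features tested. The EM shuffle libraries lay below those of each other condition. Taken singly, this held for 1207 of 5456 features against wild-type Abf1 and 1422 against no Abf1. It held for 1434 features against LS-15 and 1112 against NCS-506. How many features met all of these together was not counted, so this order is not a trait of MEP2 alone. MEP2 was read at 18 to 51 counts a library. In such bulk libraries, less RNA in each cell and fewer cells with the RNA cannot be told apart.

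GAP1 and MEP1 behaved otherwise. GAP1 was at 97.3 CPM in the wild-type Abf1 library of 60 min and at 39.8 CPM in that of 75 min. The 9 other libraries lay between or below these values, at 55.1, 57.1 and 65.8 CPM without Abf1, 45.6 and 38.9 CPM with EM shuffle, 61.9 and 59.1 CPM with LS-15, and 54.2 and 30.6 CPM with NCS-506. MEP1 was at 52.0 and 16.8 CPM with wild-type Abf1 at 60 and 75 min, at 16.0, 27.2 and 28.8 CPM without Abf1, at 27.5 and 12.6 CPM with EM shuffle, at 39.4 and 36.0 CPM with LS-15, and at 28.3 and 10.02 CPM with NCS-506. For both genes the wild-type Abf1 libraries spanned most of the range of the 11 libraries. DAL5 was low throughout, at 11.7 and 13.3 CPM with wild-type Abf1, 9.02, 8.43 and 8.22 CPM without Abf1, 10.2 and 6.83 CPM with EM shuffle, 11.2 and 10.4 CPM with LS-15, and 15.0 and 17.1 CPM with NCS-506. DAL5 was read at 8 to 36 counts a library, and its NCS-506 libraries lay above those of each other condition. Taken singly, this held for 1451 of 5456 features against wild-type Abf1 and 1249 against no Abf1. It held for 1112 features against EM shuffle and 1089 against LS-15. How many features met all of these together was not counted, and DAL5 was called in no comparison below.

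**Figure D2:**
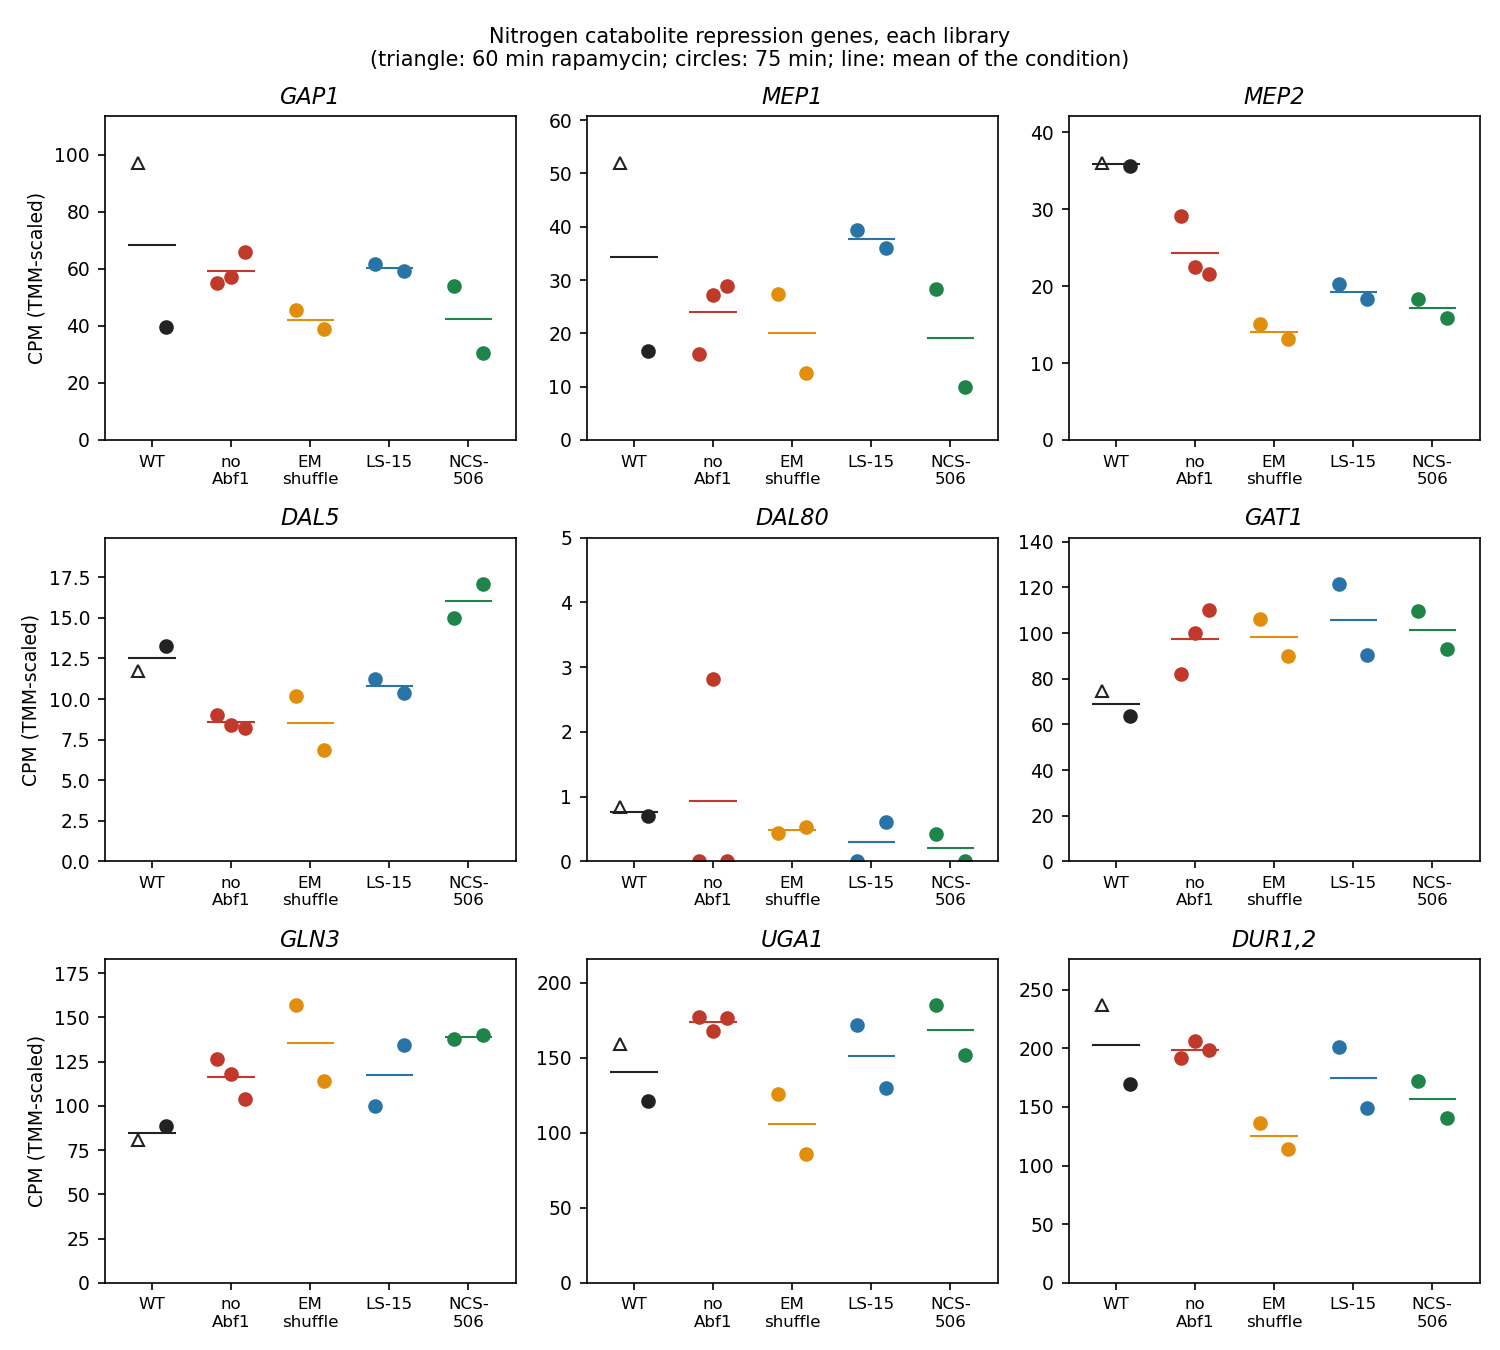
CPM (y axis, TMM-scaled, starting at 0) of each member in each of the 11 libraries, grouped by condition (WT is wild-type Abf1), with a line at the mean of the condition, circles for 75 min and a triangle for 60 min of rapamycin. The MEP2 panel has both wild-type Abf1 libraries on top, at 36.1 and 35.6 CPM, the GAP1 and MEP1 panels have them far apart, and the GAT1 and GLN3 panels have them at the bottom.

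The activators were lowest with wild-type Abf1, where MEP2 was highest. GLN3, whose product is kept in the cytoplasm in rich nitrogen, was at 80.6 and 88.7 CPM with wild-type Abf1. It was at 126, 118 and 104 CPM without Abf1, 157 and 114 CPM with EM shuffle, 100.1 and 134 CPM with LS-15, and 138 and 140.2 CPM with NCS-506. GAT1 was at 74.7 and 63.5 CPM with wild-type Abf1, 82.2, 100.2 and 110.0 CPM without Abf1, 106 and 89.9 CPM with EM shuffle, 121 and 90.2 CPM with LS-15, and 109.6 and 93.1 CPM with NCS-506. In both genes the 2 wild-type Abf1 libraries lay below the 9 others, which held for 6.27% of all features tested.

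Among the enzymes, UGA1 was at 159 and 121 CPM with wild-type Abf1, 177, 168 and 177 CPM without Abf1, 126 and 85.7 CPM with EM shuffle, 172 and 129.8 CPM with LS-15, and 185 and 152 CPM with NCS-506. DUR1,2 was at 237 and 169.6 CPM with wild-type Abf1, 192, 206 and 198 CPM without Abf1, 136 and 114 CPM with EM shuffle, 201 and 149 CPM with LS-15, and 172 and 141 CPM with NCS-506. In both genes the no Abf1 libraries lay close together and above both EM shuffle libraries. Of 5456 features tested, 1422 likewise had all no Abf1 libraries above both EM shuffle libraries.

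The 2 wild-type Abf1 libraries differ in rapamycin time and in batch label, and the effects of time and batch cannot be told apart. With 1 library at each time there is no replicate check and no test. GAP1 fell from 116 counts at 60 min to 57 at 75 min, a CPM ratio of 0.409 with a 95% counting interval of 0.292 to 0.566. MEP1 went from 62 to 24 counts, a ratio of 0.322 (0.192 to 0.523). These intervals cover counting error only. The enzymes were also lower at 75 min, with ratios of 0.762 (0.617 to 0.941) for UGA1 and 0.717 (0.601 to 0.854) for DUR1,2. The intervals of MEP2 (0.987, from 0.645 to 1.52), DAL5 (1.13, from 0.537 to 2.43), GAT1 (0.851, from 0.628 to 1.15) and GLN3 (1.10, from 0.838 to 1.45) all include 1. Of the 8 members 6 were lower at 75 min and 2 were at least 2-fold lower on the log2 CPM scale, beside 52.1% and 3.98% of all features tested. Without TMM scaling the median feature moved by 0.30 on the log2 scale between these libraries, and MEP1 alone was at least 2-fold lower. As log2(TPM + 1) the median feature was 0.49 higher at 75 min. On that scale GAP1 and MEP1 were still lower, at -0.16 and -0.23, and at -0.70 and -0.77 relative to the median of each library, while UGA1, DUR1,2 and GAT1 turned to higher, at 0.45, 0.25 and 0.37.

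Other permeases were read against this pair. Of 34 other genes of nitrogen use that passed the filter, 29 were lower at 75 min, and 4 had CPM ratios under 0.5, namely PUT4, AGP1, PUT1 (0.489) and ATG8 (0.495), of which PUT4 and AGP1 encode permeases. On the log2 CPM scale with its prior count, to which the 3.98% refers, 2 of the 34, PUT4 and AGP1, were at least 2-fold lower. PUT4, the proline permease, was at 52.0 CPM (62 counts) at 60 min and 7.68 CPM (11 counts) at 75 min, a ratio of 0.148 (0.0701 to 0.283), and 0.0367% of all features fell further. AGP1, a broad amino acid permease, was at 503 and 211 CPM, a ratio of 0.419 (0.364 to 0.482). In the 9 other libraries, all of 75 min, PUT4 ranged from 5.26 to 68.6 CPM, on both sides of the wild-type Abf1 library of the same time.

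**Figure D3:**
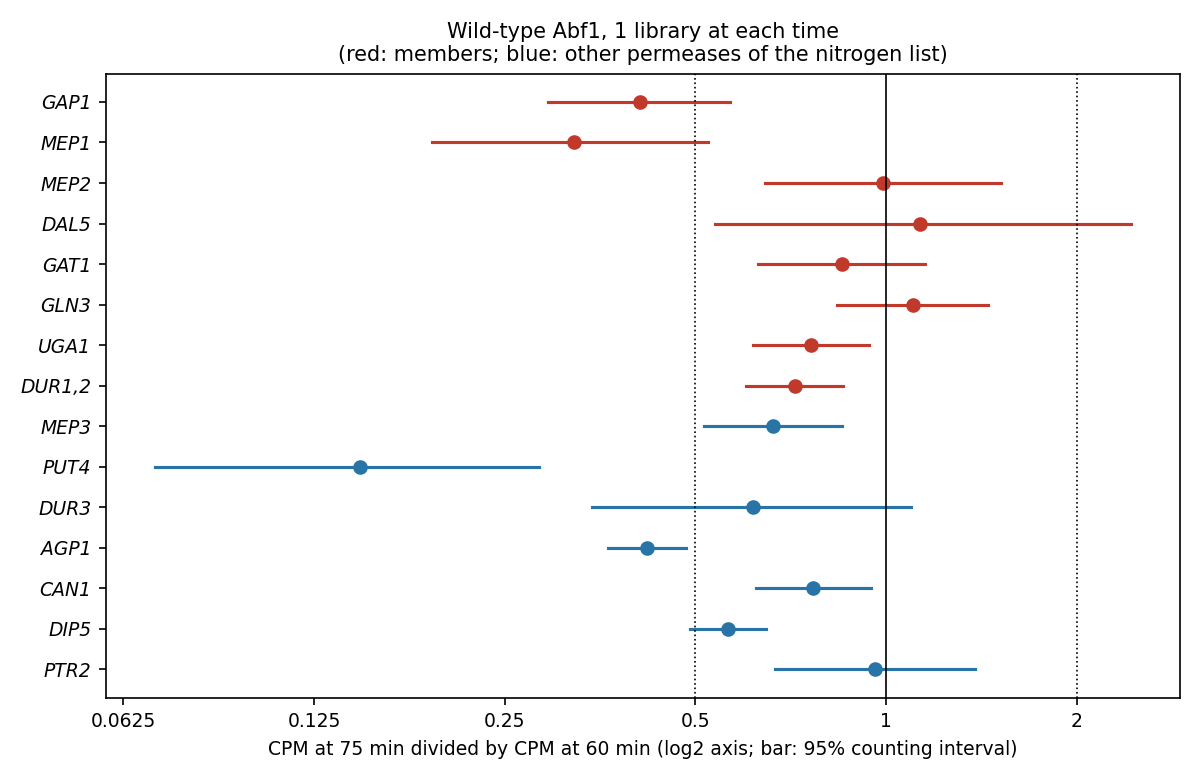
Ratio of CPM at 75 min to CPM at 60 min (log2 axis) in the 2 wild-type Abf1 libraries for 8 members (red) and the 7 other permeases of the nitrogen list (blue), with 95% counting intervals as bars and dotted lines at 0.5 and 2. GAP1, MEP1, PUT4 and AGP1 lie below 0.5, with PUT4 at 0.148, while MEP2 lies at 0.987.

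Each condition was then compared with wild-type Abf1, in one model of all 11 libraries (edgeR quasi-likelihood test, Benjamini-Hochberg adjusted p under 0.05 over 5456 features). MEP2 was the only member that passed this test. With EM shuffle it averaged 14.1 ± 1.35 CPM (SD, n = 2), against 35.8 ± 0.341 CPM (SD, n = 2) with wild-type Abf1, a log2 fold change of -1.34 with a standard error of 0.25 (edgeR, Benjamini-Hochberg adjusted p = 0.0275). This was 1 of 8 members called, where 2.24% of all features were called. With LS-15 it averaged 19.3 ± 1.39 CPM (SD, n = 2), a log2 fold change of -0.91 with a standard error of 0.25 (edgeR, Benjamini-Hochberg adjusted p = 0.0413), again 1 of 8 members where 11.2% of all features were called. With NCS-506 the value was -1.05 and did not pass (edgeR, Benjamini-Hochberg adjusted p = 0.0719), nor did -0.55 without Abf1 (edgeR, Benjamini-Hochberg adjusted p = 0.0947). In a test for any difference among the 5 conditions MEP2 was again the member called, 1 of 8 where 19.5% of features were called (edgeR F of 9.16, Benjamini-Hochberg adjusted p = 0.0165). Of 34 other genes of nitrogen use this test called 13 at the same adjusted threshold, beside the same 19.5% of features. How that count moves with the settings was not tested.

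Both MEP2 calls rest on few libraries. Without the 60 min wild-type Abf1 library, which leaves 75 min libraries of 1 batch label, the size of the difference held and the call did not: the log2 fold change was -1.33 for EM shuffle (edgeR, Benjamini-Hochberg adjusted p = 0.146) and -0.90 for LS-15 (edgeR, Benjamini-Hochberg adjusted p = 0.0926). The remaining wild-type Abf1 library is then assumed to vary like the other conditions. The EM shuffle call was also lost without any 1 of the no Abf1 libraries, with an adjusted p of 0.0529 to 0.0571, and the LS-15 call stood only when an EM shuffle library was left out, with 0.0546 to 0.148 in the 9 other removals (edgeR, Benjamini-Hochberg). DESeq2 called MEP2 with EM shuffle but not with LS-15 (Benjamini-Hochberg adjusted p = 0.0185 and 0.109).

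No member was called without Abf1, where 23.4% of all features were called, or with NCS-506, where 0.587% were called (edgeR, Benjamini-Hochberg adjusted p from 0.0881 to 0.932 and from 0.0719 to 0.578). In each of these comparisons 3 members had an unadjusted p under 0.05, namely MEP2, GAT1 and GLN3, beside 2042 and 1043 of 5456 features (edgeR). DESeq2 called 0 members in each. GLN3 had log2 fold changes of 0.45 for the empty plasmid, 0.68 for EM shuffle, 0.48 for LS-15 and 0.71 for NCS-506, and GAT1 had 0.50, 0.51, 0.60 and 0.56. The smallest adjusted p among these 8 values was 0.0851, for GAT1 with LS-15 (edgeR, Benjamini-Hochberg). The 4 comparisons share the same wild-type Abf1 libraries, so they are not separate evidence. Without Abf1, GAT1, GLN3 and UGA1 did not overlap with wild-type Abf1 and were higher, beside 28.6% of all features, and MEP2 and DAL5 did not overlap and were lower, beside 28%.

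For GAP1 in all 4 comparisons, and for MEP1 in all but that of LS-15, the sign turned without the 60 min library. With both wild-type Abf1 libraries the log2 fold changes of GAP1 were -0.19 for the empty plasmid, -0.68 for EM shuffle, -0.17 for LS-15 and -0.65 for NCS-506. Without the 60 min library they were 0.57, 0.09, 0.60 and 0.11. MEP1 moved from -0.49, -0.73, 0.15 and -0.76 to 0.52, 0.27, 1.15 and 0.25 in the same order. Neither gene passed the test in either fit, and the 95% interval of MEP1 without Abf1 ran from -1.64 to 0.66 on the log2 scale with all libraries.

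**Figure D4:**
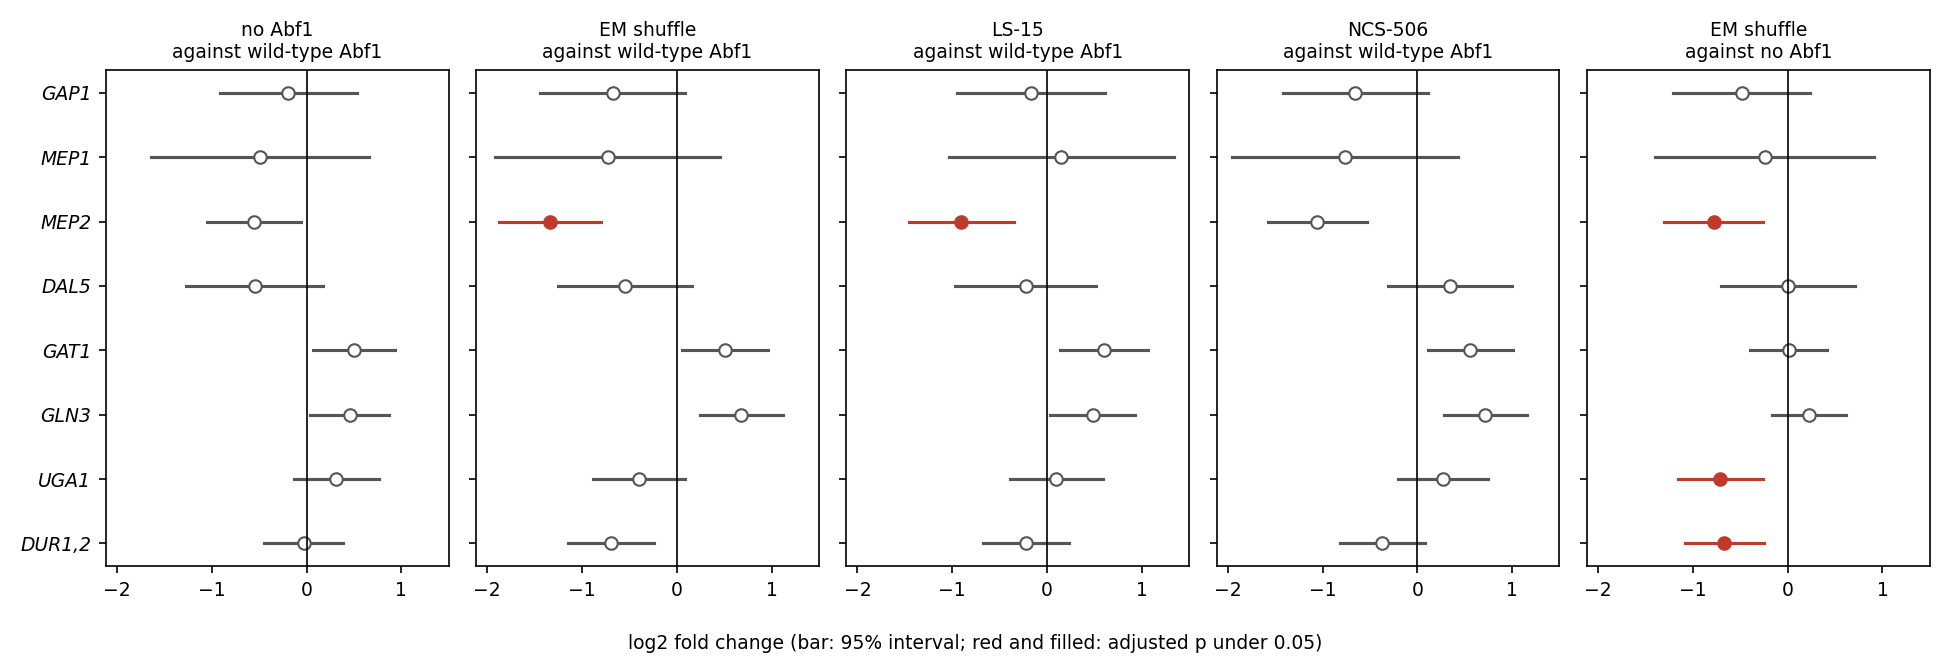
Log2 fold change (x axis) of 8 members in 5 comparisons, with 95% intervals from the edgeR fit of 11 libraries, and filled red points where the adjusted p was under 0.05. MEP2 is red against wild-type Abf1 for EM shuffle at -1.34 and LS-15 at -0.91, and MEP2, UGA1 and DUR1,2 are red for EM shuffle against no Abf1.

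The constructs were also compared with the empty plasmid, all at 75 min and within 1 batch label. EM shuffle was lower than no Abf1 in 3 of 8 members, where 24% of all features were called and 11.1% were called as lower. UGA1 averaged 106 ± 28.6 CPM (SD, n = 2) with EM shuffle and 174 ± 5.49 CPM (SD, n = 3) without Abf1, a log2 fold change of -0.71 with a standard error of 0.21 (edgeR, Benjamini-Hochberg adjusted p = 0.0287). DUR1,2 averaged 125 ± 15.5 CPM (SD, n = 2) and 199 ± 7.27 CPM (SD, n = 3), a log2 fold change of -0.67 with a standard error of 0.19 (edgeR, Benjamini-Hochberg adjusted p = 0.0290). MEP2 averaged 14.1 ± 1.35 CPM (SD, n = 2) and 24.4 ± 4.09 CPM (SD, n = 3), a log2 fold change of -0.78 with a standard error of 0.24 (edgeR, Benjamini-Hochberg adjusted p = 0.0363). GAT1 and DAL5 differed by 0.01 and 0.01 on the log2 scale, with 95% intervals from -0.39 to 0.42 and from -0.70 to 0.71. Without EM shuffle replicate 2 the adjusted p of the 3 calls rose to between 0.142 and 0.181, without EM shuffle replicate 1 that of MEP2 rose to 0.0523, and without any 1 of the no Abf1 libraries to between 0.0631 and 0.120 (edgeR, Benjamini-Hochberg). With the replicate number as a block MEP2 was at -0.86 and lost its call (edgeR, Benjamini-Hochberg adjusted p = 0.0634), and the enzymes kept theirs. On the scale of the deposited TPM values the median feature stood 0.66 higher (log2) with EM shuffle than without Abf1, and the 3 differences turned positive, from 0.13 to 0.32 as log2(TPM + 1). Relative to the median of each library they were negative on that scale as well.

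In the 5 other comparisons no member was called. The share of all features called was 0% for LS-15 against no Abf1, 3.19% for NCS-506 against no Abf1, 5.5% for EM shuffle against LS-15, 0% for EM shuffle against NCS-506 and 0% for LS-15 against NCS-506. DESeq2 called 0 members in these 5 as well. At an unadjusted p under 0.05 edgeR counted 0, 1, 2, 2 and 0 of 8 members, beside 359, 1037, 1404, 625 and 401 of 5456 features. The log2 fold changes of the members ran from -0.89 to 0.91 over these comparisons.

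MEP1 was the least repeatable member. Its within-condition SD on the log2 CPM scale was 0.72, larger than that of 97.8% of the features tested, beside 0.44 for GAP1, 0.15 for MEP2 and a median feature of 0.25. The replicates of MEP1 were 1.04 apart on the log2 scale with EM shuffle and 1.39 apart with NCS-506, but 0.13 apart with LS-15. Its pattern over the 11 libraries was compared with that of 5146 protein-coding genes by the root mean square difference of centred log2 CPM. The nearest were MUP3, a methionine permease, at 0.30, ECM38, which acts on glutathione, at 0.31, and GAP1 at 0.35, followed by YGR050C at 0.39 and MCO32 at 0.41, beside a median gene at 0.72. For DUR1,2 the nearest were MRM2, GET4, FAR8, SPC25 and ICP55, at 0.12 to 0.15 beside a median of 0.42. This measure is a description of 11 libraries that share conditions and depth.

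Other genes of nitrogen use were read beside the members. Without Abf1, 12 of 34 were called against wild-type Abf1, 35.3% beside 23.4% of all features, 7 higher and 5 lower. This count was 5 without the 75 min wild-type Abf1 library, 7 and 6 without no Abf1 replicates 2 and 3, and 1 on either uncentred TPM scale. Their median log2 fold change was 0.21, that of the members was -0.11, and that of all features was 0.02. Among the permeases, the urea transporter DUR3 had 58.3 ± 5.48 CPM (SD, n = 3) against 21.0 ± 7.04 CPM (SD, n = 2), a log2 fold change of 1.48, and rose by the test. In ammonium assimilation, glutamine synthetase GLN1 fell by 1.27 on the log2 scale and the glutamate dehydrogenase GDH1, which builds glutamate, by 0.63, whereas GDH2, the dehydrogenase that breaks glutamate down, rose by 1.31. The regulators DAL81, an activator of allantoin genes, and NPR1, a kinase that stabilises permeases, fell by 1.36 and 1.20. Of the vacuolar and autophagy genes, ATG8 rose by 1.41 and the protease gene PRB1 by 1.08. The adjusted p of the 12 genes ranged from 0.00216 to 0.0426 (edgeR, Benjamini-Hochberg).

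GLN1 had the 2 wild-type Abf1 libraries apart as well, at 1171 CPM at 60 min and 637 CPM at 75 min, and both lay above all 9 others, which ranged from 308 to 480 CPM. It was also lower with LS-15, by 1.37, and with NCS-506, by 1.46, on the log2 scale (edgeR, Benjamini-Hochberg adjusted p = 0.0150 and 0.0353). CAR2, the ornithine transaminase of arginine breakdown, singled out after its values were seen, was higher in all 4 comparisons with wild-type Abf1, by 0.73 for the empty plasmid, 0.94 for EM shuffle, 1.09 for LS-15 and 1.15 for NCS-506 (edgeR, Benjamini-Hochberg adjusted p = 0.0176, 0.0382, 0.0166 and 0.0353). These 4 comparisons share the same wild-type Abf1 libraries. CAR1, also of arginine breakdown, did not rise with CAR2. It was at 143 and 118 CPM with wild-type Abf1 and 86.2, 110 and 106 CPM without Abf1. With EM shuffle it was at 107 and 86.2 CPM, with LS-15 at 124 and 116 CPM, and with NCS-506 at 94.6 and 64.8 CPM. Of the 34 genes 1 was called for EM shuffle against wild-type Abf1, 6 for LS-15 and 2 for NCS-506, beside 2.24%, 11.2% and 0.587% of all features. With each library left out in turn these counts ran from 0 to 6, from 0 to 11 and from 0 to 5. Against no Abf1, EM shuffle had 5 genes higher and 10 lower, 44.1% of the 34 beside 24% of all features. This count of 15 was 5, 4 and 2 without no Abf1 replicates 1, 2 and 3, and 3 without EM shuffle replicate 2. PTR2, the peptide transporter, was the highest at 2.57 on the log2 scale, and its EM shuffle libraries differed widely (137 ± 89.3 CPM, SD, n = 2). The 10 lower were led by GDH3 at -1.79, which had 26 counts in one EM shuffle library and 1 in the other, followed by ATG14 at -1.47, GDH2 at -1.25 and ATG8 at -1.14. Also among them, and named after their values were seen, were UGA2, which acts after UGA1 in the same GABA pathway, at -0.94, and DUR3, which imports the substrate of DUR1,2, at -0.78. UGA3, listed with the regulators, went the other way. It was at 110 and 86.7 CPM with EM shuffle and at 72.2, 54.3 and 53.5 CPM without Abf1.

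**Figure D5:**
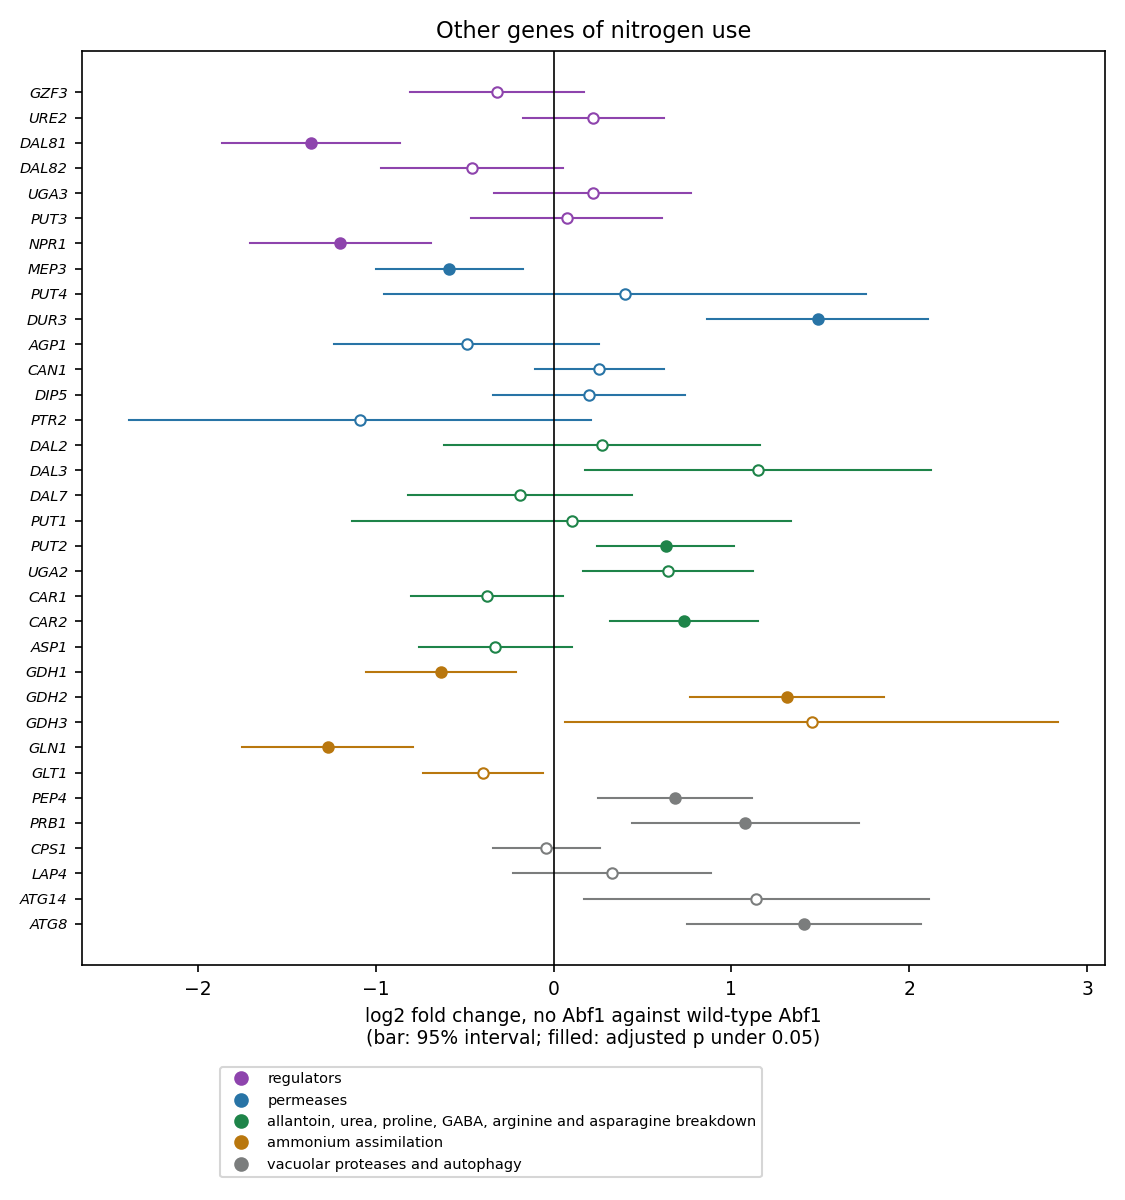
Log2 fold change (x axis) of 34 other genes of nitrogen use for no Abf1 against wild-type Abf1, coloured by role, with 95% intervals from edgeR and filled points where the adjusted p was under 0.05. GDH2 at 1.31 and DUR3 at 1.48 are on the right, and DAL81 at -1.36 and GLN1 at -1.27 are on the left.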

How the data were processed

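Total RNA of 11 libraries (NEBNext Ultra II directional kit) was aligned by the authors to sacCer3 (R64) with STAR and quantified with RSEM. The strand setting is not given in the sources used here. Per gene, the deposited tables hold whole-number counts without normalization and TPM values. Totals were 920044 to 2195476 counts a library (median 1422833), which limits the precision of low genes, and replicates of every condition differed beyond sampling noise (chi-square per degree of freedom 1.31 to 32.8 over 3817 genes). The test was that of edgeR 4.0.16, run under R 4.3.3 (filterByExpr, TMM, one quasi-likelihood fit of 11 libraries, common biological coefficient of variation 0.171). Log2 CPM used a prior count of 2. Counting intervals are exact conditional ones and cover counting error only. Alternatives were limma 3.58.1 on log2 TPM with a pseudocount of 1 or 0.1, DESeq2 1.42.0, other filters, groups fitted alone, a replicate block and each library left out, and TPM centred on each library's median was added after seeing the data. The members and the list of 42 other nitrogen genes were chosen with earlier results of these data known. Of that list 34 passed the filter, DAL1, DAL4, DCG1 and UGA4 did not, and 4 ASP3 copies were not analysed here. All members were named, and of the other list at most 4 genes called in each direction by fold, plus those marked in the text. The likeness rule took the 5 nearest genes for the member of highest mean and that of widest range. Members overlap no other annotated gene, and no 50-base window of them recurs in the genome. The script for the test was tested on simulated data.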

Additional observations from a re-analysis of the deposited data

How the results depend on the processing

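The depth limits DAL80 above all, and MEP2 and DAL5 next, at 8 to 51 counts a library. With 2 libraries of wild-type Abf1 that differ in time and batch label, no member call stood under every setting. Counts of members called that moved are as follows. DESeq2 gave 0 for LS-15 against wild-type Abf1. Fits of the compared groups alone gave 1 (GLN3) for no Abf1, 0 for EM shuffle and 0 for LS-15 against wild-type Abf1. Log2(TPM + 1) gave 2, 0 and 3 for EM shuffle, LS-15 and NCS-506 against wild-type Abf1, 5 for NCS-506 against no Abf1, 2 for EM shuffle against LS-15 and 3 for any difference, and log2(TPM + 0.1) gave 2, 0, 4 and 5 for the first 4 of these and 4 for any difference. On that TPM scale the median of all features is 0.66 higher (log2) with EM shuffle than without Abf1, and the EM shuffle differences turned positive, to 0.24 (DUR1,2), 0.32 (UGA1) and 0.13 (MEP2) with a pseudocount of 1, and to 0.42, 0.40 and 0.36 with 0.1. Centred on each library's median, an alternative chosen after seeing the data, the TPM values gave 2, 0 and 1 against wild-type Abf1, 1 for NCS-506 against no Abf1 and 2 for any difference, and no sign turned. Each library left out in turn gave 0 to 2 members for EM shuffle, 0 to 1 for LS-15 and 0 to 2 for NCS-506 against wild-type Abf1, 0 to 3 for EM shuffle against no Abf1, 0 to 1 for EM shuffle against LS-15 and against NCS-506, and 0 to 2 for any difference, which lost its call without either wild-type Abf1 library. Without either EM shuffle library MEP2 and GLN3 were called for NCS-506 against wild-type Abf1, without replicate 2 GLN3 was also called for EM shuffle, and without replicate 1 UGA1 was called for EM shuffle against LS-15 and against NCS-506. At 75 against 60 min, members at least 2-fold lower numbered 1 without TMM, 0 on log2(TPM + 1) and 0 on the centred scale. Promoter windows of 400 in place of 250 bases gave 8 members with GATAAG and 1 with the Abf1 consensus. The cause of these shifts was not tested.

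Counts over all features moved as well, over the other settings from 46 to 1729 (main 1277) without Abf1, 1 to 3012 (122) with EM shuffle, 0 to 752 (613) with LS-15 and 2 to 2656 (32) with NCS-506 against wild-type Abf1, 867 to 3962 (1312) and 34 to 4091 (174) for EM shuffle and NCS-506 against no Abf1, and 0 to 2232 (300) for EM shuffle against LS-15. With each library left out they ran against wild-type Abf1 from 563 to 1661, 10 to 363, 3 to 1087 and 0 to 390, from 0 to 425 for NCS-506 against no Abf1 and from 2 to 1136 for EM shuffle against LS-15. For EM shuffle against no Abf1 the highest was 1715, and the lowest was over 1.5 times below the main count. The comparisons with 0 calls reached up to 83 (LS-15 against no Abf1), 480 (EM shuffle against NCS-506) and 50 (LS-15 against NCS-506). Other nitrogen genes called ran over the other settings from 1 to 17, 0 to 15, 0 to 8 and 0 to 16 against wild-type Abf1 and from 10 to 20 for EM shuffle against no Abf1.

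Replicate numbers are shared by no Abf1 and the constructs. The differences of replicate 1 and 2 correlated at 0.184 to 0.373 among constructs and at -0.129 to -0.0816 between no Abf1 and the constructs, over 5456 features, so the numbers were not taken to pair the libraries. With the replicate number as a block, EM shuffle against no Abf1 kept UGA1 and DUR1,2 and lost MEP2, with 2 members called. No paired analysis was possible for comparisons with wild-type Abf1 because its libraries carry no number.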
